A study of Mus musculus with 4 samples.

Results

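The TREM and Fc receptor group was examined in the skin of bleomycin (BLM)-treated mice. It comprised 10 genes, chosen by name from the 24441 genes of the deposited table: the receptors Trem1, Trem2, Fcgr1, Fcgr3, Fcgr4 and Fcgr2b, the adaptors Tyrobp, Fcer1g and Hcst, and the kinase Syk. All 10 were found in the table. The study compared GSDMD-/- mice with wild type (WT) mice to ask how loss of gasdermin D (GSDMD), the pore-forming executor of pyroptosis, alters the expression profile of fibrotic skin. RNA of BLM-treated skin was sequenced in 2 libraries of GSDMD KO mice and 2 libraries of WT mice. The labels give an age of 8 weeks, and by the treatment protocol the animals were female C57BL/6 mice. However, KO replicate 2 held transcripts of Y-linked genes, given below, so the sex behind that library was not settled. By the same protocol all received subcutaneous BLM, a cytotoxic antibiotic that causes skin fibrosis, every other day until day 28. The KO line was made by injecting Cas9 mRNA and a guide RNA into C57BL/6 zygotes. The edited position, and whether the WT mice were littermates, are not given in the sources used here. Saline-treated skin was not analysed here, so every value describes BLM-treated skin. The labels do not say whether the 2 libraries of a group came from separate mice, and p-values therefore measure only the spread between these libraries.

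Most receptors of this group lack an activating motif of their own. They pair in the membrane with the small adaptors DAP12 (the product of Tyrobp), FcRγ (the product of Fcer1g) or DAP10 (the product of Hcst). DAP12 and FcRγ carry an immunoreceptor tyrosine-based activation motif (ITAM), a pair of tyrosines that Src family kinases phosphorylate and that then recruit SYK. Fc gamma receptors bind the constant part of IgG and drive phagocytosis and cytokine release by macrophages and neutrophils, and the TREM receptors tune inflammatory and lipid responses of myeloid cells. FCGR2B is the inhibitory Fc receptor and carries an inhibitory motif (ITIM) in its own tail. In skin these genes are known chiefly from macrophages, dendritic cells, neutrophils and mast cells.

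The stretches that encode these motifs are shown because they set the adaptors, the inhibitory receptor and the remaining receptors apart. They were read from the coding transcripts annotated on mm9, 5′ to 3′ on the coding strand, with the tyrosine codons of the motif in capitals. Of the 10 genes, only Tyrobp and Fcer1g encoded an ITAM in the longest complete coding transcript (tyrosine, any 2 residues, leucine or isoleucine, 6 to 8 residues, and the same pattern again). In Tyrobp the ITAM lies on chr7:31200689-31202401 of the + strand, across exons 4 and 5 of 5. In Fcer1g it lies on chr1:173160020-173160203 of the - strand, across exons 4 and 5 of 5. Hcst encodes a single tyrosine motif that binds phosphatidylinositol 3-kinase, on chr7:31202840-31202851 of the - strand in exon 4 of 4, and the ITIM of Fcgr2b lies on chr1:172891202-172891219 of the - strand in exon 8 of 8.
Tyrobp: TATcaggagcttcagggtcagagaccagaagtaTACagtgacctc
Fcer1g: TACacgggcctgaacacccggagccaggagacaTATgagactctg
Hcst: TACatcaacatg
Fcgr2b: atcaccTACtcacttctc

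Several of the genes are neighbours. On mm9, Tyrobp (chr7:31198807-31202598) and Hcst (chr7:31202731-31204873) lie on opposite strands with 132 bases between them. Fcgr2b (chr1:172890689-172906202), Fcgr4 (chr1:172949057-172959892), Fcgr3 (chr1:172981300-172989534) and Fcer1g (chr1:173159703-173164480) lie within 273.8 kb. Trem1 (chr17:48371903-48386091) and Trem2 (chr17:48485726-48491601) are 99634 bases apart. Fcgr1 lies at chr3:96086832-96097892 and Syk at chr13:52678806-52744161. No exon of the 10 genes overlapped an exon of another annotated gene. Only Fcgr2b and Fcgr3 shared sequence with each other: 10.7% of the 50-base stretches of the Fcgr2b transcript and 12.8% of those of the Fcgr3 transcript were found in the other gene, and 0 of their stretches of 150 bases. The read length is not given in the sources used here. Fragments from the shared stretches could have been split between this pair by the authors' counting.

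Values were deposited as FPKM, fragments scaled to transcript length and to library depth, so levels of different genes can be set side by side. Judged from the steps between low values, a transcript of 1 kb gained 0.0572 to 0.0786 FPKM with each fragment, and 3 such fragments, taken as the detection floor, amount to 0.172 to 0.236 FPKM. The knocked-out gene Gsdmd had 14.0 and 18.2 FPKM in WT, against 3.53 and 2.26 in KO libraries. Both KO libraries stood apart from the WT libraries in genes of some other cell types. In KO replicate 2 the summed FPKM of 8 fibroblast markers was 11.5% of the WT mean, that of 7 endothelial markers 9.38% and that of 6 adipocyte markers 7.07%. The same sums in KO replicate 1 were 183%, 111% and 65.8%. Of these, the endothelial and adipocyte sums lay within the WT range, from 80.1% to 120% and from 53.0% to 147% of the WT mean. The summed FPKM of 12 hair follicle markers was 10.5 and 1.89 in WT, 368.1 in KO replicate 1 and 21.6 in KO replicate 2. Transcripts of 4 Y-linked genes summed to 1.78 FPKM in KO replicate 2 but were listed at 0 elsewhere, and by the treatment protocol the animals were female. Keratinocyte markers, which define skin, summed to at least 3571 FPKM in every library and stood at 252% of the WT mean in KO replicate 1 and 122% in KO replicate 2. The values of the 10 genes are therefore given for both KO libraries and also without either of them. In whole skin, fewer cells of a type and less RNA per cell cannot be told apart.

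All 10 genes had lower values in GSDMD KO mice, a direction (log2 fold change below 0) shared by 41.4% of the 13027 genes tested. In 10 of 10 the higher KO library lay under the lower WT library, an order found in 20.5% of the genes tested, while 35.3% of them had both KO libraries above the WT pair. The means in WT mice were 3.19 (Fcgr2b) to 38.5 (Trem1) times those in KO mice. The log2 fold changes, on the log2(FPKM + 1) scale, ran from -3.13 (Trem2) to -1.70 (Hcst) with a median of -2.37, while the median of all genes tested was 0.11. Fold changes on this scale understate the change of low genes such as Trem1. With limma and Benjamini-Hochberg adjustment over all genes tested, 0 of the 10 genes passed the study's threshold (adjusted p below 0.05, with a log2 fold change beyond 1 in either direction), and their adjusted p-values were 0.248 to 0.280. This threshold was passed by 0 of the 13027 genes (0%). With the unadjusted p of limma below 0.05 in place of the adjusted one, 10 of 10 genes were lower, against 539 of all genes tested (4.14%), and 802 of all genes (6.16%) were higher. Trem1 passed the filter on low values through the WT libraries alone and had to be lower, and without it the count was 9 of 9. With median-ratio scaling of the libraries that split of all genes was 700 lower and 614 higher, the median of all genes moved to -0.01 and that of the 10 genes was -2.50. These counts are a description. The 10 of 10 at the unadjusted p became 1 of 10 without WT replicate 2 (1.86% of all genes tested), 6 of 10 without WT replicate 1 (3.29%) and 9 of 10 without KO replicate 2 (2.56%). With 2 libraries a group, the smallest two-sided p that an exact permutation test allows for 1 gene is 0.333.

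**Figure D1:**
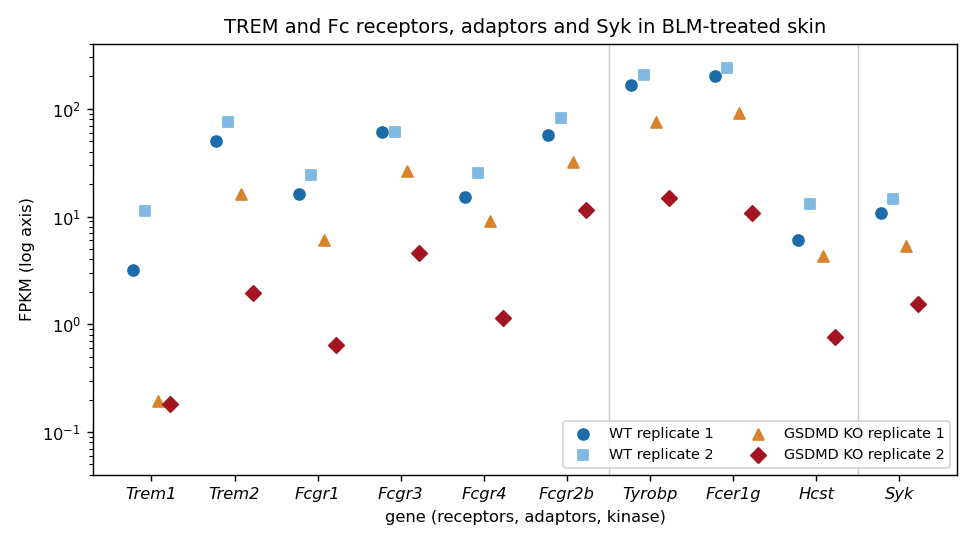
FPKM (log axis) of the 10 genes in each of the 4 libraries, with receptors on the left, adaptors in the middle and Syk on the right; each point is 1 library. In every gene both KO points lie below both WT points, and KO replicate 2 is the lowest, although for Trem1 the KO libraries nearly coincide at 0.192 and 0.181 FPKM.

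Trem1, a DAP12-coupled receptor that amplifies inflammatory responses of neutrophils and monocytes, was measured at 3.18 FPKM in WT replicate 1 and 11.1 FPKM in WT replicate 2, but at 0.192 and 0.181 FPKM in the KO libraries (replicates 1 and 2, the order used throughout). The KO libraries were alike and far below either WT library, whereas the WT libraries differed by 3.51 times. The log2 fold change of Trem1 came to -2.59, with a standard error of 0.53 and an adjusted p of 0.248 by limma. On its longest annotated transcript of 3024 bases, the KO values correspond to an estimated 7.97 and 6.96 fragments, not far above the floor of 3 fragments. In FPKM they lie below the floor of a 1 kb transcript in these libraries (0.218 and 0.236). The likeness of the KO libraries is therefore read near the floor. The filter asked for at least 1 FPKM in at least 2 libraries, which for Trem1 were the WT libraries. Trem2, a lipid- and apolipoprotein-binding receptor of tissue macrophages that also couples to DAP12, had 49.8 and 75.9 FPKM in WT, against 16.2 and 1.96 in KO libraries. Here the KO libraries lay 8.29 times apart. For Trem2 limma gave a log2 fold change of -3.13, with a standard error of 0.85 and an adjusted p of 0.248. This was the largest of the group with a pseudocount of 1, but with a pseudocount of 0.1 Trem1 was at -4.41 and Trem2 at -3.41. Leaving out KO replicate 2 gave -1.86 and leaving out KO replicate 1 gave -4.40, while Trem1 stood at -2.58 and -2.59 in these fits. Trem1 depended on the WT libraries instead, with -3.36 without WT replicate 1 and -1.82 without WT replicate 2. Trem2 was 15.7 and 6.81 times as abundant as Trem1 in WT libraries, 84.7 times in KO replicate 1 and 10.8 times in KO replicate 2.

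The activating Fc gamma receptors signal through FcRγ. Fcgr3, a low-affinity IgG receptor of myeloid and NK cells, was the most abundant of the 3, with 61.1 and 61.6 FPKM in WT, against 26.4 and 4.57 in KO libraries (log2 fold change -2.34, standard error 0.75, adjusted p = 0.258 by limma). Its WT libraries were almost equal, and the spread between libraries lay in the KO group. Fcgr4, a receptor for IgG2 of monocytes, macrophages and neutrophils, had 15.3 and 25.1 FPKM in WT, against 9.01 and 1.15 in KO libraries (log2 fold change -2.15, standard error 0.76, adjusted p = 0.272 by limma). Fcgr1, the high-affinity IgG receptor, had 16.0 and 24.1 FPKM in WT, against 6.08 and 0.644 in KO libraries (log2 fold change -2.60, standard error 0.72, adjusted p = 0.248 by limma). For Fcgr1 the KO libraries lay 9.45 times apart, the widest gap of the 10 genes, and the lower one corresponds to an estimated 21.2 fragments. Fcgr1 and Fcgr4 stood at like levels and changed places between the WT libraries, so their order was not separated from the spread.

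Fcgr2b, the inhibitory receptor, stood at the largest share of its WT mean in FPKM. It had 57.8 and 82.6 FPKM in WT, against 32.4 and 11.6 in KO libraries (log2 fold change -1.77, standard error 0.52, adjusted p = 0.248 by limma). KO replicate 1 was at 46.2% and KO replicate 2 at 16.5% of the WT mean, the highest shares of the 10 genes in either library. In KO replicate 1, however, Hcst (44.9%) and Fcgr4 (44.5%) were close to it. By log2 fold change Hcst (-1.70) and Syk (-1.75) changed slightly less than Fcgr2b. The ratio of Fcgr2b to the sum of Fcgr1, Fcgr3 and Fcgr4 was 0.624 and 0.746 in WT libraries, 0.781 in KO replicate 1 and 1.82 in KO replicate 2. Both KO ratios were above both WT ratios, but that of KO replicate 1 was close to that of WT replicate 2. Against Fcgr4 alone the ratio was 3.77 and 3.29 in WT and 3.60 and 10.1 in KO libraries, so the groups overlapped. They also overlapped against Fcgr3 alone (0.945 and 1.34 in WT, 1.23 and 2.54 in KO libraries). Against Fcgr1 alone they did not, with 3.60 and 3.43 in WT and 5.33 and 18.0 in KO libraries. Because Fcgr2b and Fcgr3 share sequence, ratios between them depend on how shared fragments were assigned.

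The adaptors Fcer1g and Tyrobp were the most abundant of the 10 genes in WT skin. Fcer1g had 202.9 and 241.5 FPKM in WT, against 92.4 and 10.9 in KO libraries (log2 fold change -2.74, standard error 0.96, adjusted p = 0.271 by limma). In WT replicate 1 it exceeded 97.2% of all genes tested, and in KO replicate 2 it exceeded 55.8%. Tyrobp had 164.9 and 205.2 FPKM in WT, against 75.1 and 15.01 in KO libraries (log2 fold change -2.41, standard error 0.74, adjusted p = 0.254 by limma). The ratio of Fcer1g to Tyrobp, the genes whose ITAM sequences are given above, was 1.23 and 1.18 in WT libraries and 1.23 in KO replicate 1, but 0.724 in KO replicate 2, the only library in which Tyrobp was the higher. Hcst, the adaptor of the NKG2D receptor and the tail-to-tail neighbour of Tyrobp, was far lower, with 6.02 and 13.0 FPKM in WT, against 4.27 and 0.769 in KO libraries (log2 fold change -1.70, standard error 0.63, adjusted p = 0.280 by limma). Its lower WT library and higher KO library were the closest of the group, with KO replicate 1 at 71.0% of WT replicate 1. On its transcript of 437 bases the value of KO replicate 2 corresponds to an estimated 4.28 fragments, so the level there is poorly determined. The ratio of Tyrobp to Hcst, 27.4 and 15.8 in WT against 17.6 and 19.5 in KO libraries, did not separate the groups.

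Syk, the kinase that docks on phosphorylated ITAMs, had 10.7 and 14.6 FPKM in WT, against 5.35 and 1.55 in KO libraries (log2 fold change -1.75, standard error 0.49, adjusted p = 0.248 by limma). The groups did not overlap, and without KO replicate 2 the log2 fold change was -1.09 (adjusted p = 0.242 by limma). Tyrobp was 15.4 and 14.0 times as abundant as Syk in WT libraries, 14.0 times in KO replicate 1 and 9.68 times in KO replicate 2. In both WT libraries and KO replicate 1, Fcer1g and Tyrobp led, then came Fcgr2b, Fcgr3 and Trem2, followed by Fcgr1 and Fcgr4, then Syk and Hcst. In KO replicate 2 Fcgr2b ranked above Fcer1g, and Syk above Fcgr4, Hcst and Fcgr1. Trem1 was the lowest of the 10 in every library. Fcgr3 ranked above Fcgr2b and Trem2 in WT replicate 1 and below both in WT replicate 2. Fcgr2b was above Trem2 in every library, but their WT ranges overlapped.

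The replicates of each group differed in the same way for all 10 genes. WT replicate 2 was above WT replicate 1 in 10 of 10 genes, by 1.01 to 3.51 times. KO replicate 1 was above KO replicate 2 in 10 of 10, by 1.06 to 9.45 times. In KO replicate 1 the 9 genes other than Trem1 stood at 25.8% to 46.2% of the WT mean and Trem1 at 2.68%. A value under 50% of the WT mean was found there in 4.69% of all genes tested and in all 10 members, and a value under 10% in 0.238% of all genes and in 1 member, Trem1. In KO replicate 2 the members stood at 2.52% (Trem1) to 16.5% (Fcgr2b) of the WT mean, and 8 of the 10 were under 10%, against 3.29% of all genes tested. When KO replicate 2 was left out, the median over the 10 genes moved to -1.22, with single log2 fold changes from -2.58 (Trem1) to -0.91 (Hcst), and 0 of the 10 passed the threshold (adjusted p-values 0.132 to 0.478 by limma). In that fit 43 genes passed, of which 15 (0.115% of all genes tested) were lower. Without KO replicate 1 the median was -3.37 and all 10 genes passed, with adjusted p-values of 0.000764 to 0.0219 by limma. In that fit the single KO library is assumed to vary like the WT libraries, and 2058 genes (15.8% of those tested) passed in either direction, 1199 of them (9.2%) lower.

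**Figure D2:**
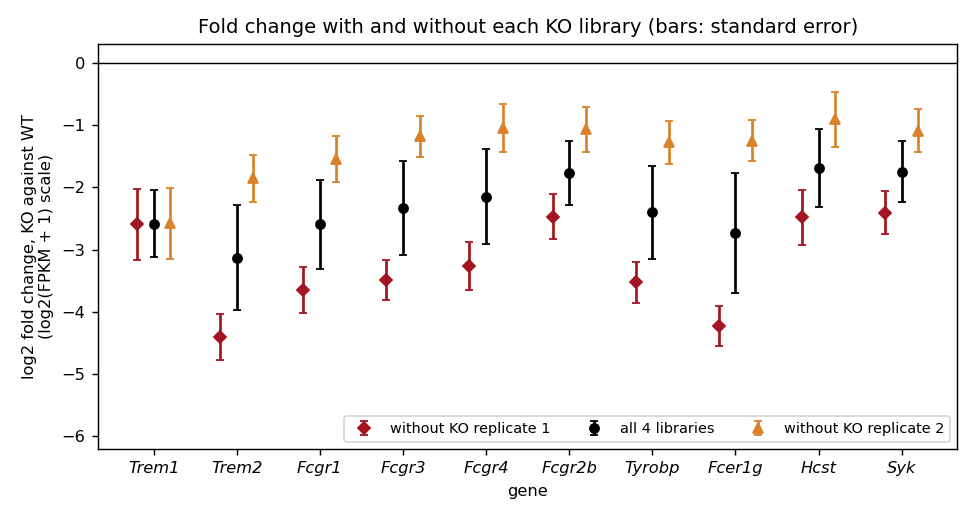
Log2 fold change of GSDMD KO against WT on the log2(FPKM + 1) scale for each gene, from all 4 libraries and with either KO library left out; bars are the standard error from limma. Values are below 0 in each fit, Trem1 stays near -2.59, and the other 9 genes are closer to 0 without KO replicate 2 (median of all 10 genes -1.22) than without KO replicate 1 (median -3.37).

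Most macrophage and common leukocyte markers were lower together with the receptors, whereas mast cell markers varied and the dendritic cell list was mixed. The summed FPKM of 14 macrophage markers was 2273 and 2355 in WT and 993.1 and 129.9 in KO libraries. The KO sums were 42.9% and 5.61% of the WT mean. At the unadjusted threshold 9 of the 14 were lower, 1 of which (Cx3cr1) passed the filter through the WT libraries alone. The share of all genes tested was 4.14%, and 0 of the 14 passed the adjusted threshold. Of these markers, Cd163 stood at 168% and Mrc1 at 92.9% of the WT mean in KO replicate 1. For 5 genes common to leukocytes (Ptprc, Coro1a, Laptm5, Cd53 and Cd52) the KO sums were 42.0% and 6.59% of the WT mean. The sum of 12 neutrophil markers was 44.6% and 21.6% of the WT mean, but it consisted mostly of S100a8 (440.5 and 287.1 FPKM in WT) and S100a9 (311.9 and 322.4 FPKM in WT). Of the 7 neutrophil markers tested, 6 were lower at the unadjusted threshold (4.14% of all genes tested) and 0 passed the adjusted one. Among the 6 was Csf3r, at 34.2% of the WT mean in KO replicate 1. There Cxcr2 stood at 96.4% of the WT mean, and Ltf (199%) and Camp (759%) were above it at levels of at most 2.51 FPKM. The neutrophil marker Ly6g was at most 0.238 FPKM in WT and listed at 0 in both KO libraries. The sum of 10 mast cell markers, cells that express Fcer1g, was 131% in KO replicate 1 and 16.6% in KO replicate 2. The sum of 8 dendritic cell markers was 249% and 336%, mostly Epcam, which epithelial cells also express (24.8 and 11.2 FPKM in WT, against 68.6 and 101.5 in KO libraries). Of the same list, Cd207 was at 216% and 75.9%, Itgax at 45.2% and 15.1% and Cd209a at 49.1% and 10.3% of the WT mean. Ccr7 stood at 21.5% and 5.96%, but it passed the filter through the WT libraries alone. Flt3, too low to be tested, stood at 10.2% and 18.4%. NK and T cell markers were low everywhere, with sums of at most 3.30 and 7.59 FPKM. The sum of 6 B and plasma cell markers, at most 6.18 FPKM, was 29.6% and 35.8% of the WT mean, and that of 6 skeletal muscle markers 66.8% and 61.1%. None of the marker genes of these lists was at 0 in all 4 libraries. The fibroblast and endothelial sums of KO replicate 1 given above were not below the WT mean, whereas in KO replicate 2 they were low along with the leukocyte markers. The part of cell composition in the lower receptor values was not tested.

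**Figure D3:**
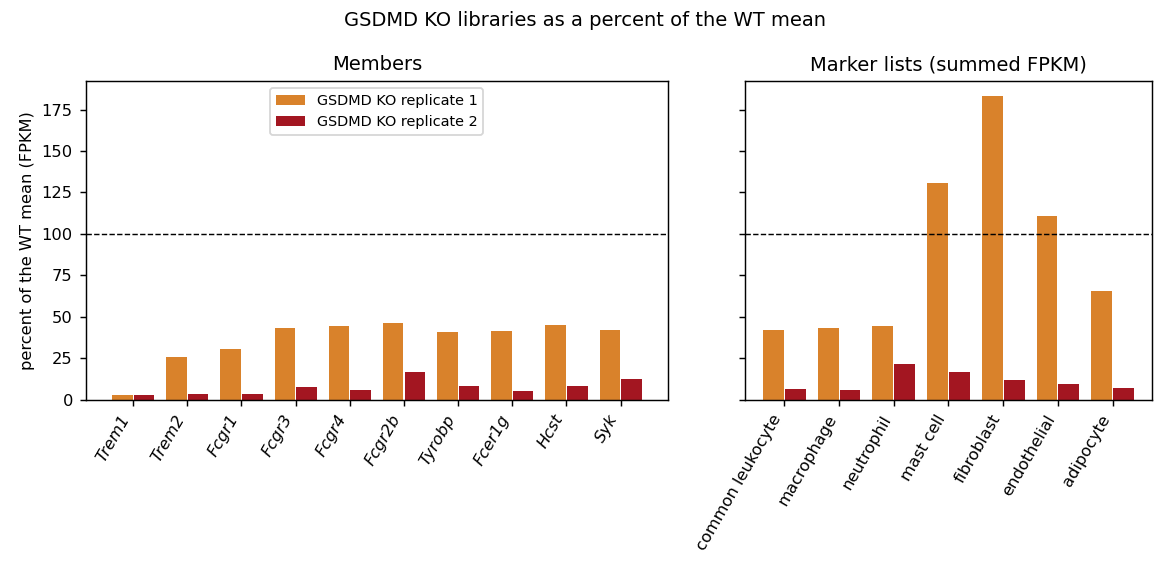
Values of each GSDMD KO library as a percent of the WT mean (dashed line, 100%), for the 10 genes on the left and for the summed FPKM of marker lists on the right. In KO replicate 1 most members stand near the leukocyte markers (42.0%) and Trem1 far below at 2.68%, while fibroblast markers are at 183%; in KO replicate 2 all members and marker lists shown are at 21.6% or less.

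Each gene was also set against the mean log2(FPKM + 1) of the 5 common leukocyte genes in the same library. On this relative scale the groups overlapped in 9 of the 10 genes, and the KO pair lay below the WT pair in 1 of them, against 0.169% of the 13023 genes compared. Since the leukocyte genes were themselves lower in KO libraries, a gene had to be lower still to lie below them. The gene was Trem2, which stood at 0.05 and 0.57 log2 units relative to the leukocyte genes in WT libraries and at -0.30 and -0.68 in KO libraries. Tyrobp stood at 1.76 and 1.99 in WT and at 1.85 and 1.76 in KO libraries, and Fcgr3 at 0.34 and 0.27 against 0.37 and 0.24. For both genes the KO and WT values were intermixed. Fcer1g was at 2.06 and 2.23 in WT and 2.14 in KO replicate 1, and lower, at 1.33, in KO replicate 2. Trem1 was at -3.55 and -2.09 in WT and at -4.15 in KO replicate 1. Its relative value in KO replicate 2, which was above both WT values, is bounded from below by the pseudocount of 1, since the leukocyte genes themselves averaged 2.24 log2 units there. The same pseudocount raises other members under 1 FPKM in that library, namely Fcgr1 (0.644 FPKM) and Hcst (0.769 FPKM). Counts on these relative scales therefore hold for a pseudocount of 1, and no other was tried on them. Relative to the 14 macrophage markers, the KO pair lay below the WT pair in 5 of the 10 genes: Trem2, Tyrobp, Fcer1g, Fcgr1 and Fcgr3. This order was found in 0.376% of all genes compared, with the same limit, and the other 5 members overlapped. Trem2 again had the largest gap, with 0.30 and 0.74 log2 units in WT against -0.43 and -0.66 in KO libraries. Relative to the 12 neutrophil markers the KO pair was the lower in 9 of the 10 genes, all but Hcst, against 3.28% of all genes compared. The mean of that list differed by -0.86 log2 units between KO and WT libraries, against -2.33 for the leukocyte genes and -2.07 for the macrophage markers, and 5 of its 12 genes were too low to be tested. These relative values were not tested.

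**Figure D4:**
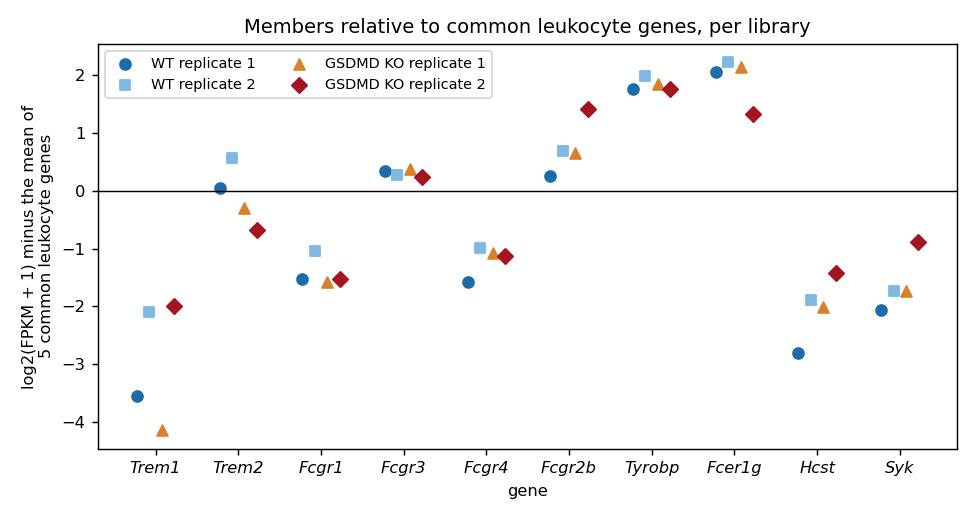
Log2(FPKM + 1) of each gene minus the mean of 5 common leukocyte genes in the same library; each point is 1 library and 0 marks the leukocyte mean. Tyrobp and Fcgr3 hold nearly the same relative level in the 4 libraries. With this pseudocount of 1, Trem2 is the only gene in which both KO points (-0.30 and -0.68) lie below both WT points (0.05 and 0.57).

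Other receptors that use the same adaptors, together with relatives and partners of such receptors, were examined next. Not all of them signal through these adaptors. Of 23 such genes, 12 were tested. Of these 11 were lower in GSDMD KO mice at an unadjusted p under 0.05 and a log2 fold change below -1, against 4.14% of all genes tested, and 0 passed the adjusted threshold by limma. Clec4e and Clec5a passed the filter through the WT libraries alone and had to be lower, and of the other 10 genes 9 were lower. The median log2 fold change was -2.12 with and without this pair. The largest was that of Clec4d, encoding an FcRγ-coupled C-type lectin, with 25.8 and 33.1 FPKM in WT, against 2.46 and 2.19 in KO libraries (log2 fold change -3.19, standard error 0.25, adjusted p = 0.190 by limma). Clec4e, which encodes the mycobacterial glycolipid receptor Mincle, had 12.1 and 11.0 FPKM in WT, against 0.674 and 0.253 in KO libraries. In KO replicate 1 Clec4d stood at 8.34% of the WT mean. Cd300lf had 11.7 and 14.8 FPKM in WT, against 2.06 and 0.427 in KO libraries. The exception was Fcer1a, the IgE-binding chain on mast cells, with 0.821 and 1.94 FPKM in WT, against 3.45 and 0.465 in KO libraries (log2 fold change 0.14, adjusted p = 0.910 by limma). Trem3, the neighbour of Trem1, was too low to be tested, with 0.665 and 2.67 FPKM in WT, against 0.335 and 0.0904 in KO libraries. Siglech and Gp6 were listed at 0 in all libraries.

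Fc receptors outside the activating and inhibitory set were mostly too low to be tested, with 2 of 8 genes passing the filter. Fcgrt, encoding the neonatal Fc receptor that recycles IgG and albumin, had 33.8 and 76.3 FPKM in WT, against 47.4 and 7.34 in KO libraries, so the groups overlapped (log2 fold change -1.37, adjusted p = 0.443 by limma). Trim21, a cytosolic Fc receptor, had 4.23 and 3.39 FPKM in WT, against 3.98 and 4.77 in KO libraries (log2 fold change 0.16, adjusted p = 0.739 by limma). Among ligands, Pglyrp1, whose product binds TREM1, had 4.03 and 5.84 FPKM in WT, against 4.84 and 1.52 in KO libraries. Apoe and Clu encode apolipoproteins that bind TREM2. Apoe had 1312 and 2026 FPKM in WT, against 2109 and 3103 in KO libraries (log2 fold change 0.65, adjusted p = 0.388 by limma). Its KO libraries were the higher ones, an order found in 35.3% of all genes tested, and KO replicate 1 was close to WT replicate 2. Clu had 144.1 and 403.0 FPKM in WT, against 206.2 and 48.9 in KO libraries. The immunoglobulin constant genes were not analysed here.

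Downstream of the receptors, genes in both directions were found. Of 7 Src family kinases, which phosphorylate ITAMs, 2 were lower and 1 was higher at the unadjusted threshold (4.14% and 6.16% of all genes tested, also for the next lists), and the median log2 fold change was -0.54. Among the lower ones was Fgr, which is known from myeloid cells, with 10.5 and 11.9 FPKM in WT, against 2.24 and 0.556 in KO libraries. Lyn had 11.8 and 14.1 FPKM in WT, against 7.21 and 0.760 in KO libraries (log2 fold change -1.87, adjusted p = 0.292 by limma). The higher one was Yes1, with 3.30 and 1.34 against 4.29 and 7.10 FPKM. Of 20 genes of the ITAM signalling cascade 6 were lower and 1 was higher at this threshold, with a median of -0.43. The largest differences were those of Vav1, Lcp2 and Card9, with log2 fold changes of -1.81, -1.75 and -1.66. The 20 genes include ones used by many cell types, such as Plcg1 (log2 fold change 0.15) and Prkcd (-0.13). Vav3 was higher, with 4.29 and 3.75 FPKM in WT, against 8.69 and 22.2 in KO libraries (log2 fold change 1.58, standard error 0.46, adjusted p = 0.248 by limma). Of 11 tested inhibitory receptors, phosphatases and other negative regulators 6 were lower, with a median of -1.23. Among them Lilrb4a, an ITIM receptor, had 60.8 and 37.7 FPKM in WT, against 8.13 and 3.40 in KO libraries, and Dok2 and Sirpa had log2 fold changes of -1.97 and -1.81. None of the genes in these 3 lists passed the adjusted threshold by limma.

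The genes whose pattern over the 4 libraries was most like that of Tyrobp, by the root mean square difference of centred log2(FPKM + 1) values, were Sdc3, Tnfrsf1b, Lcp1, Cd68 and Selplg, with differences of 0.05 to 0.09 log2 units. Cd68, a macrophage marker, had 99.8 and 120.9 FPKM in WT, against 38.5 and 7.80 in KO libraries. Of the members, Fcgr3 (0.11) and Fcgr1 (0.14) were closest to Tyrobp and Trem1 (0.91) was farthest. For Syk the closest genes outside the group included Ceacam1, Pfkfb3, Il2rg and Aldh3b1, with differences of 0.02 to 0.08, and the closest member was Fcgr2b (0.05). With 4 libraries, 2 of which differ strongly, many genes can share such a pattern.

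The promoters of the receptors were searched because their genes were low together. RefSeq promoters of GRCm38.p6, 250 bases before to 50 after the start site, were at hand for 9 of the 10 genes, all but Tyrobp. GAGGAA, the purine-rich core bound by PU.1, an ETS factor of myeloid cells, occurred on either strand in a promoter of 6 of the 9 genes (Fcgr1, Fcgr3, Fcgr4, Syk, Trem1 and Trem2), against 31.3% of 27025 genes. In Trem2 it began 40 bases, in Fcgr1 55 bases and in Fcgr3 6 bases before the start site, on the opposite strand (TTCCTC). The AP-1 motif TGACTCA, found in 5.95% of genes, and the C/EBP motif TTGCGCAA, found in 0.207%, were in 0 of the 9. At shares this low 0 of 9 is common for any 9 genes, so it gives no contrast to GAGGAA. A match of letters is not a bound site. Shown are 3 receptor promoters with a match close to the start site, chosen after the matches were seen, with the match in capitals: Trem2 from chr17:48346151-48346450 (+ strand), Fcgr1 from chr3:96293920-96294219 (- strand) and Fcgr3 from chr1:171059354-171059653 (- strand), in GRCm38.p6 coordinates that cannot be set beside the mm9 positions above.
Trem2: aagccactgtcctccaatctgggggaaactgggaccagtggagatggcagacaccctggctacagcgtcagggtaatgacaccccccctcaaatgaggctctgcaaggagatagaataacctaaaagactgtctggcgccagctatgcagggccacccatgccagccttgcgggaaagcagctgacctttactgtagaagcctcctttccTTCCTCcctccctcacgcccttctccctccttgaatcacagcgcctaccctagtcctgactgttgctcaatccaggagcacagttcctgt
Fcgr1: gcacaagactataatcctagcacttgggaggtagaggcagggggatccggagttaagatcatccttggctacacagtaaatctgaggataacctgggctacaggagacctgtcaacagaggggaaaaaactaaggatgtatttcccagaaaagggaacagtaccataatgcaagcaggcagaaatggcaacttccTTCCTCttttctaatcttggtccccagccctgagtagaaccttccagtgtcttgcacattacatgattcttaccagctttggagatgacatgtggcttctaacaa
Fcgr3: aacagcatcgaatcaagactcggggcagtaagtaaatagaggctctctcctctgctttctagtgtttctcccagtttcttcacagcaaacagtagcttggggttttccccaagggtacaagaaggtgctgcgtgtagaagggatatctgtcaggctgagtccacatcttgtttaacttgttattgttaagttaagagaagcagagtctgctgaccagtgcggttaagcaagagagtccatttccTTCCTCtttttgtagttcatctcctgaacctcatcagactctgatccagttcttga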

How the data were processed

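The deposited expression table covers 4 RNA libraries from skin of mice given BLM (2 GSDMD KO, 2 WT), with groups taken from the labels. According to the study's methods and the submitters' processing notes, the authors used HISAT2 version 2.0.1 with the mm9 genome, counted reads per gene and ran DESeq2, and the notes also list StringTie version 2.0.6. The deposited table holds FPKM values made by the authors, which was inferred from the values (99.993% of those above 0 are not whole). The program that made them is not given in the sources used here, and neither is whether counting used the strand. In FPKM, transcript length and depth are divided out. Of the gene names, 26 had been turned into dates and none of the 10 members is among them.

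Genes reaching 1 FPKM in 2 or more libraries (13027) were kept. Their log2(FPKM + 1) values entered a limma model (version 3.58.1, R 4.3.3) of genotype alone, with a mean-variance trend and Benjamini-Hochberg adjustment. Calls required adjusted p below 0.05 together with a log2 fold change beyond 1 in either direction. A count model was not used, since the steps between FPKM values depend on transcript lengths that the table does not give, and the methods give raw reads only as a total and an average, so the depth per library was estimated from what 1 fragment is worth in 2710 GENCODE genes that have 1 transcript of 2 kb or longer. No interval was derived from it. Alternatives were other scalings, pseudocounts, filters, no trend, the replicate number as a block and leaving out each library.

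The members, gene lists and tests were chosen with earlier results of these data known. The text names the 10 members, Gsdmd, the 3 tested genes of each list with the largest absolute log2 fold change, partners and ligands, and the 5 genes nearest to Tyrobp and to Syk. Of the genes this rule names, 2 are not reported here. Yes1, Vav3, Fcer1a, Trem3, Clec5a, Plcg1, Prkcd and the single marker genes given with values (Cd163, Mrc1, Cx3cr1, S100a8, S100a9, Csf3r, Cxcr2, Ltf, Camp, Ly6g, Epcam, Cd207, Itgax, Cd209a, Ccr7 and Flt3) were named after their values were seen. GENCODE on mm9 lists Syk under its synonym Sykb. Tables were made with Python version 3.11.15.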

Additional observations from a re-analysis of the deposited data

How the results depend on the processing

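Under each scaling, pseudocount and filter tried, without the variance trend, with a block and without either WT library, all members tested had log2 fold changes below 0 and 0 of them passed the adjusted threshold, as did 0 of all genes. Their median ranged from -2.53 to -2.03 in these fits. Over the fits that leave out 1 library, the genes called ranged from 0 to 2058 (43 without KO replicate 2, 2058 without KO replicate 1), the members called from 0 to 10, and the median log2 fold change of the members from -3.37 to -1.22. Without KO replicate 1 the log2 fold changes were -2.59 for Trem1, -4.40 for Trem2, -3.53 for Tyrobp, -2.49 for Hcst, -4.23 for Fcer1g, -3.65 for Fcgr1, -2.48 for Fcgr2b, -3.49 for Fcgr3, -3.26 for Fcgr4 and -2.41 for Syk. The fit then rests on the spread of the WT libraries alone. Without a filter 19663 genes were tested, and 7 members and 434 of all genes were lower with an unadjusted p under 0.05 and a log2 fold change below -1. This number of members was 10 with all libraries, 6 without WT replicate 1, 1 without WT replicate 2 and 9 without KO replicate 2, where the genes lower by the same measure numbered 539, 428, 242 and 333. With a mean of at least 5 FPKM Trem1 was not tested.

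The labels give WT and KO libraries the same replicate numbers but no shared litter or batch. Same-numbered libraries had deviations that correlated at -0.20 over 13027 genes, so they were not treated as paired. With the replicate block the median log2 fold change of the members was -2.37 and 0 of 10 members and 0 genes were called, the smallest adjusted p of a member being 0.126 by limma. With the crossed block, chosen after seeing the data, 0 of 10 members and 0 genes were called. Depth limits Trem1 and Hcst most, with an estimated 6.96 and 4.28 fragments in their lowest KO libraries.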
